A study of Homo sapiens with 6 samples.

Results

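YAP1 and WWTR1, the paralogous transcriptional coactivators YAP and TAZ of the Hippo pathway, were examined together with 7 genes that they are known to activate: CCN1, CCN2, ANKRD1, AMOTL2, LATS2, AXL and CRIM1. Members were taken by gene symbol, with CCN1 and CCN2 being CYR61 and CTGF in older annotation. Of the 9 genes, 8 had at least 1 probe set under their name, and they are 8 of the 11963 genes measured. LATS2 had no probe set under its name and was not analysed here. The 8 genes were read by 13 probe sets, with 1 probe set for each of 4 genes and more than 1 for each of the other 4.

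HK2 cells, which derive from human proximal tubule epithelium and were immortalised with viral oncogenes, were transfected at 30% confluence with an siRNA against OCRL or with a non-targeting siRNA, and were harvested after 96 h. OCRL encodes an inositol polyphosphate 5-phosphatase that is mutated in Lowe syndrome. Each group held 3 arrays, 1 for each of 3 experiments that the labels call independent, and both groups were the same line, grown in medium with insulin, transferrin and selenium and given the same transfection reagent. A single cell line and a single OCRL siRNA treatment were used, so an effect of this reagent cannot be told apart from that of lower OCRL.

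The arrays were alike in the deposited values, apart from a small offset between the groups. Their medians on the log2 scale were 7.23 to 7.24 in control arrays and 7.27 to 7.30 in OCRL siRNA arrays, without overlap. The correlation of the arrays over probe sets, given as a description only, was 0.998 to 0.999 (Pearson's r) within groups and 0.994 to 0.995 between them. OCRL fell 4.06-fold by its brighter probe set (log2 difference -2.02, SE 0.048, adjusted p = 1.24e-05 by limma). By its dimmer probe set the fall was 2.01-fold (log2 difference -1.01, SE 0.102, adjusted p = 7.64e-04). Of 8 measured proximal tubule markers, 6 lay below the median of all probe sets on every array, and the megalin gene LRP2 lay below the lower quartile on every array, so the tubular label of this line rests little on these markers. Of 6 epithelial markers, 1 lay below the median on every array, whereas all 5 endothelial and all 4 measured leukocyte markers did. The mean log2 level of the epithelial markers was 9.94 to 10.00 in control arrays and 9.75 to 9.80 in OCRL siRNA arrays, and that of the 7 fibroblast markers was 6.24 to 6.34 and 6.16 to 6.23. That of the 8 proximal tubule markers was 5.92 to 6.02 and 6.10 to 6.19. At an adjusted p under 0.05 by limma, 3 of the 8 proximal tubule markers were higher (ANPEP, MME and DPP4, chosen for naming after their values were seen). Of these, ANPEP lay below the lower quartile on all 6 arrays. The other 5, LRP2, CUBN, AQP1, SLC34A1 and SLC5A2, had differences below 0 by their brightest probe sets and did not pass. The median difference of the 8 was -0.08. Of the 6 epithelial markers, 3 were lower and 1 higher, and 1 of the 7 fibroblast markers was lower. Over all genes 10.5% were lower and 15.5% higher. The part of these shifts in the results was not tested, and in bulk RNA fewer cells of a kind and less RNA per cell cannot be told apart. Array number limits the precision of every value given here.

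The Hippo pathway controls growth and the response of epithelia to cell density and to tension of the actin cytoskeleton. When its kinases are active, LATS1 and LATS2 phosphorylate YAP and TAZ, which are then kept in the cytoplasm or degraded. When they are inactive, YAP and TAZ enter the nucleus, bind the DNA-bound TEAD factors and raise the transcription of genes such as CCN1, CCN2 and ANKRD1. The arrays measured mRNA, and the phosphorylation and location of YAP and TAZ, through which the pathway mainly acts, were not measured.

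The promoters of 3 targets are shown because they hold the core letters of the TEAD motif; of the 3 mRNAs, CCN2 and AMOTL2 were called lower and ANKRD1 was not called. Sequences are the 250 bases upstream of the annotated RefSeq start on GRCh38.p14, written 5′ to 3′ in the direction of the gene, with GGAATG and its reverse complement CATTCC in capitals. The CCN2 window lies at chr6:131951373-131951622, the ANKRD1 window at chr10:90921088-90921337 and the second of 2 AMOTL2 windows at chr3:134374448-134374697, all on the minus strand.

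CCN2: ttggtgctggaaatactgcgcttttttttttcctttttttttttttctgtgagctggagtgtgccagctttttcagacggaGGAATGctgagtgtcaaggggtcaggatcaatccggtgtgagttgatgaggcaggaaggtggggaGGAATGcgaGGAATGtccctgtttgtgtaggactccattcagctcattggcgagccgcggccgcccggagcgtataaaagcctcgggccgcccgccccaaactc
ANKRD1: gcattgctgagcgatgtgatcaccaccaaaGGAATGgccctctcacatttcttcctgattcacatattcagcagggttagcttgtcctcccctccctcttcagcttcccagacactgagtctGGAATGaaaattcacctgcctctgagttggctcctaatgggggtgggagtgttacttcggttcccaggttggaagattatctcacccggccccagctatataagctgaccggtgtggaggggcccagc
AMOTL2: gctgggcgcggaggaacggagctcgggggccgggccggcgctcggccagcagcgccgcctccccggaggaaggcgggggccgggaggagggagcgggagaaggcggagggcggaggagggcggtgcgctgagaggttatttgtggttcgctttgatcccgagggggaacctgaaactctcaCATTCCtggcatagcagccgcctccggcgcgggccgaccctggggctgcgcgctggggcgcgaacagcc

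CCN2 held 3 copies of the motif, which began 169, 104 and 95 bases before the start, ANKRD1 held 2, at 220 and 128 bases, and AMOTL2 held 1, whose leftmost base lay 69 bases before the start. Searched on both strands, GGAATG was found in 11.9% of 35116 RefSeq windows of this length, at least 2 copies in 0.940% and at least 3 in 0.0826%. The motif does not overlap its own reverse complement. Windows were given for 7 of the 9 members, CCN1 and CRIM1 not being among them, and 5 of the 7 held the motif at least once, YAP1 and AXL being the others. This counts genes, whereas the 11.9% counts single windows. AMOTL2, WWTR1 and AXL had 2 windows each, and AMOTL2 and AXL held the motif in 1 of them only. LATS2 and both windows of WWTR1 held none. The AP-1 motif TGACTCA, searched on both strands, was in none of the 10 member windows and in 4.20% of all windows, and the CArG box bound by SRF was in none of them and in 1.16% of all. Such matches describe letters in a short window and do not show binding.

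After OCRL knockdown the 2 coactivators moved in opposite directions by small amounts, and 5 of the 6 measured targets fell. At an adjusted p under 0.05 in a limma fit over all probe sets, 1 of the 8 member genes was higher, YAP1, and 6 were lower, WWTR1, CCN1, CCN2, AMOTL2, AXL and CRIM1. ANKRD1 did not pass. Over all genes, 26.0% were called, 15.5% higher and 10.5% lower, so 75.0% of the members called lower stands beside 10.5% of all genes. Among probe sets, 10 of the 13 passed, against 23.1% of all probe sets, and the groups did not overlap in 11 of 13, against 40.7%. The median difference of the 8 genes was -0.25 on the log2 scale, where that of all genes was 0.00050. All 13 member probe sets lay above the median of all probe sets on every array. With dim probe sets left out, 5651 of 11108 probe sets were called, 2467 of them lower, beside 6 of 8 members lower. The shares over all genes given here and below include dim probe sets. Members and lists were chosen with earlier results of these data known, so their shares are no independent evidence of a direction. The count of 7 member genes called fell to 4 when OCRL siRNA replicate 1 or OCRL siRNA replicate 3 was left out, with all 4 lower and 0 higher by limma, and 8 or 7 at an unadjusted p under 0.05. After quantile normalisation or median centring 6 were lower and 0 higher, with all 8 at an unadjusted p under 0.05. Median centring, which sets the array medians equal, also turned the split of all called probe sets from 2939 higher and 2198 lower into 2274 and 3138.

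**Figure D1:**
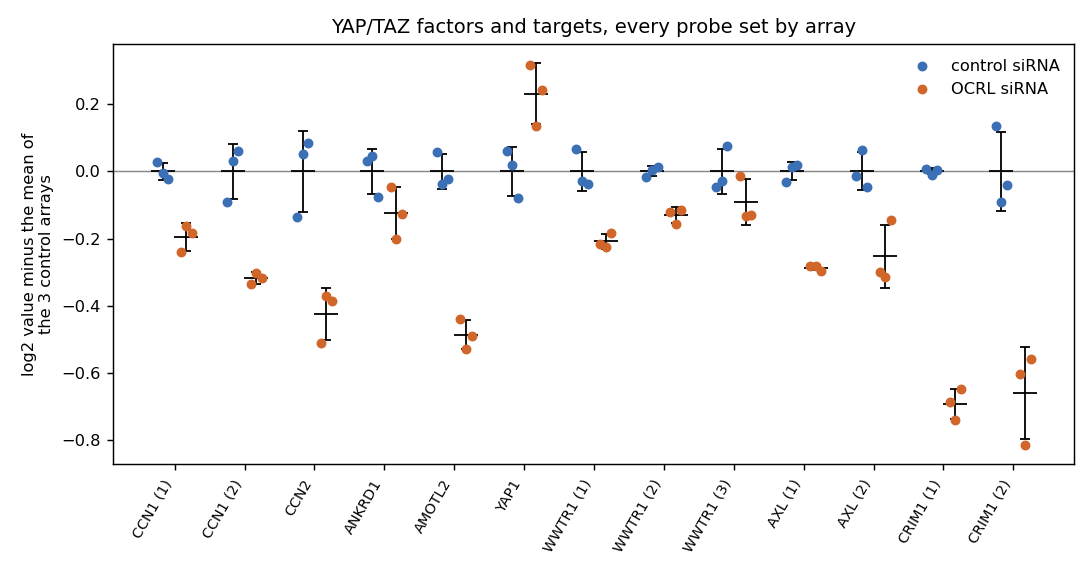
Each point is 1 array, as the log2 value of a probe set minus the mean of its 3 control arrays, for the 13 probe sets of the 8 measured members; bars are means ± SD of 3 arrays, and numbers in brackets order the probe sets of a gene from the representative one. YAP1 alone lies above the control mean in OCRL siRNA arrays, and both CRIM1 probe sets lie lowest.

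YAP1 had 1 probe set. Its log2 values were 8.82, 8.78 and 8.68 in control arrays and 9.08, 8.90 and 9.01 in OCRL siRNA arrays. All 3 OCRL siRNA values lay above all 3 control values, with a gap of 0.073 between the groups. The mean rose 1.17-fold from 8.76 ± 0.072 to 8.99 ± 0.091 (SD, n = 3; log2 difference 0.23, SE 0.064, adjusted p = 0.0419 by limma). This call was close to the threshold and was lost in 7 of 15 other settings, among them quantile normalisation (adjusted p = 0.0516), median centring (0.0977) and the omission of control replicate 2 (0.0916), control replicate 3 (0.125), OCRL siRNA replicate 1 (0.115) or OCRL siRNA replicate 3 (0.117).

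WWTR1, which encodes TAZ, was read by 3 probe sets that all had lower means after the knockdown, 1 of them past the threshold. The brightest was at 13.59, 13.49 and 13.48 in control arrays and at 13.30, 13.30 and 13.34 in OCRL siRNA arrays, without overlap. It fell 1.16-fold (log2 difference -0.21, SE 0.047, adjusted p = 0.0202 by limma). The next brightest did not overlap between groups either, with means of 12.66 ± 0.015 and 12.53 ± 0.024 (log2 difference -0.13, adjusted p = 0.0584), and the dimmest overlapped, at 11.11 ± 0.066 and 11.02 ± 0.068 (-0.09, adjusted p = 0.308). The call of the brightest was lost without OCRL siRNA replicate 1, OCRL siRNA replicate 2 or OCRL siRNA replicate 3 (adjusted p = 0.0619, 0.0662 and 0.0539). The 95% interval of its difference ran from -0.32 to -0.10 and that of YAP1 from 0.08 to 0.38, so neither interval reached a change of 1.5-fold.

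The nuclear partners of the coactivators were measured for 6 genes besides YAP1 and WWTR1. VGLL4, which competes with YAP for TEAD, was the only one of the 6 to pass. It was at 9.54, 9.52 and 9.57 in control arrays and 9.99, 9.92 and 9.98 in OCRL siRNA arrays, a rise of 1.34-fold (log2 difference 0.42, SE 0.043, adjusted p = 7.61e-04), and its second probe set rose by 0.40. TEAD1 was at 9.55, 9.24 and 9.39 in control arrays and at 9.17, 9.05 and 9.18 in OCRL siRNA arrays, so all OCRL siRNA values lay below the control values (log2 difference -0.26, SE 0.084, adjusted p = 0.0707). The differences of TEAD3 and TEAD4 were -0.05 and -0.10 (adjusted p = 0.703 and 0.232). The TEAD cofactors VGLL1 and VGLL3 had differences of 0.08 and 0.03 (adjusted p = 0.823 and 0.766), and VGLL3 lay below the lower quartile on all 6 arrays. TEAD1 was called lower in 6 of 15 other settings.

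CCN1 and CCN2 encode secreted matricellular proteins that bind integrins, and both are standard readouts of YAP and TAZ. CCN2 was at 13.14, 13.33 and 13.36 in control arrays and 12.77, 12.91 and 12.89 in OCRL siRNA arrays, with no overlap. It fell 1.34-fold (log2 difference -0.42, SE 0.074, adjusted p = 0.00705), and in all 15 other settings it was called lower, by -0.49 to -0.38. CCN1 fell less by its brighter probe set, from 14.36, 14.33 and 14.31 to 14.09, 14.17 and 14.15, lower by 1.15-fold (log2 difference -0.20, SE 0.044, adjusted p = 0.0190). Its second probe set was at 13.59, 13.71 and 13.74 in control arrays and 13.34, 13.38 and 13.36 in OCRL siRNA arrays (log2 difference -0.32, SE 0.053, adjusted p = 0.00593). The groups did not overlap in either. The brighter probe set lay at percentile 99.3 of all probe set levels, near the upper end of the range of the arrays. Its call was lost without control replicate 2, control replicate 3, OCRL siRNA replicate 1 or OCRL siRNA replicate 3 (adjusted p = 0.0510 to 0.0624).

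ANKRD1 encodes an ankyrin-repeat protein best known from heart muscle and is often read beside CCN1 and CCN2. Its log2 values were 8.77, 8.79 and 8.66 in control arrays and 8.69, 8.54 and 8.61 in OCRL siRNA arrays. The groups overlapped, since the highest OCRL siRNA value exceeded the lowest control value. The difference was -0.12 (SE 0.059, adjusted p = 0.189), with a 95% interval from -0.27 to 0.02. ANKRD1 was called in none of the 15 other settings, where its difference ran from -0.17 to -0.09. A fall as large as that of CCN2 thus lay outside its interval, although the difference between ANKRD1 and CCN2 was not itself tested.

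AMOTL2 encodes an angiomotin-like scaffold that binds YAP and holds it outside the nucleus, and it is also a target of YAP and TAZ. It was at 12.23, 12.13 and 12.15 in control arrays and at 11.73, 11.64 and 11.68 in OCRL siRNA arrays, with a gap of 0.40 between the groups. AMOTL2 fell 1.40-fold (log2 difference -0.49, SE 0.048, adjusted p = 7.28e-04) and was called lower in all 15 other settings.

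AXL encodes a receptor tyrosine kinase for the ligand GAS6. Its brighter probe set was at 12.41, 12.45 and 12.46 in control arrays and 12.16, 12.16 and 12.14 in OCRL siRNA arrays, so the spread within each group was far smaller than the gap of 0.25. It fell 1.22-fold (log2 difference -0.29, SE 0.040, adjusted p = 0.00290). The dimmer probe set fell by a like amount, from 7.94 ± 0.056 to 7.68 ± 0.093 (log2 difference -0.25, SE 0.061, adjusted p = 0.0261).

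CRIM1, a membrane protein that binds bone morphogenetic proteins, fell most among the members. Its brighter probe set was at 11.79, 11.77 and 11.79 in control arrays and 11.09, 11.04 and 11.13 in OCRL siRNA arrays. The fall was 1.62-fold, to 61.9% of the control level (log2 difference -0.69, SE 0.043, adjusted p = 1.16e-04). The other probe set read 11.31, 11.08 and 11.13 in control arrays and 10.57, 10.36 and 10.61 in OCRL siRNA arrays, lower by 1.58-fold (log2 difference -0.66, SE 0.089, adjusted p = 0.00248). By size of fall CRIM1 ranked 137 among the 5971 genes with a difference below 0, AMOTL2 305, CCN2 401, AXL 794, WWTR1 1386, CCN1 1537 and ANKRD1 2657. The 95% intervals of CRIM1 (-0.79 to -0.59) and AMOTL2 (-0.60 to -0.37) met at their ends, and those of AMOTL2, CCN2 (-0.60 to -0.25) and AXL (-0.38 to -0.19) overlapped. Differences between members in the size of their falls were not tested. With 20 ways to assign arrays to groups, the exact permutation p (two-sided) was 0.10 for each of the 11 member probe sets whose groups did not overlap, which is the smallest value that 3 arrays against 3 can give.

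**Figure D2:**
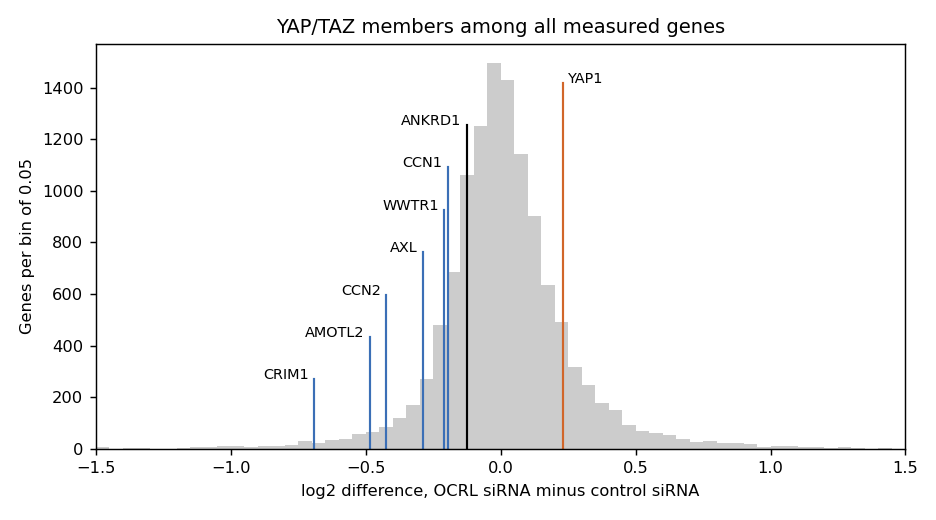
Grey bars count genes per bin of 0.05 of the log2 difference, 1 probe set per gene, and lines mark the 8 members, with blue for called lower, orange for called higher and black for not called; line height only separates the names. CRIM1, AMOTL2 and CCN2 lie in the lower tail, and YAP1, ANKRD1, CCN1 and WWTR1 lie within the bulk of genes.

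The 7 member targets belong to a list of 22 genes that follows a published signature of responses to YAP and TAZ across cell types. It may differ from the published one in single genes such as GADD45B. Of its genes 19 were measured, and 10 fell, 1 rose and 8 did not pass, with a median difference of -0.20. Thus 52.6% of the signature was lower, against 10.5% of all genes. Without the members, 5 of 13 fell, 1 rose and 7 did not pass, with a median of -0.14. Without the _s_at and _x_at probe sets, which may read more than 1 transcript, 6 of 15 signature genes were lower and 1 higher.

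The largest falls in the signature were those of secreted and membrane proteins outside the member list. F3, the coagulation initiator tissue factor, was at 11.73, 11.63 and 11.68 in control arrays and 10.31, 10.09 and 10.35 in OCRL siRNA arrays, lower by 2.69-fold (log2 difference -1.43, SE 0.077, adjusted p = 7.51e-05). TGFB2, a transforming growth factor, fell 2.54-fold (log2 difference -1.35, SE 0.062), and all 4 of its probe sets were lower. IGFBP3, a carrier of insulin-like growth factors, fell 2.14-fold by the brighter of 2 probe sets, from 11.91, 12.07 and 12.10 to 10.99, 10.87 and 10.94 (log2 difference -1.10, SE 0.064). The RNA-binding protein gene RBMS3 fell 1.66-fold (log2 difference -0.73, SE 0.044). MYOF, a membrane repair protein gene, fell 1.10-fold (-0.14, adjusted p = 0.0416), a call that was lost in 9 of 15 other settings, including each omission of 1 array.

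NT5E, which encodes the ecto-5′-nucleotidase CD73, was the only signature gene to rise. It was at 10.27, 10.23 and 10.21 in control arrays and 11.27, 11.17 and 11.25 in OCRL siRNA arrays. The rise was 1.99-fold (log2 difference 0.99, SE 0.046, adjusted p = 4.73e-05). Besides ANKRD1, the genes that did not pass were GADD45B (-0.15, adjusted p = 0.0736), ASAP1 (-0.22, 0.125), ARHGEF17 (-0.12, 0.275), FJX1 (-0.03, 0.636), PTPN14 (0.05, 0.662), DOCK5 (0.13, 0.200) and FOXF2 (0.21, 0.166), where the first value is the log2 difference. GADD45B was called lower in 5 of 15 other settings and ASAP1 in 2 of 14. None of the 4 probe sets of GADD45B passed in the fit reported. DOCK5 and FOXF2 lay below the lower quartile on all 6 arrays.

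**Figure D3:**
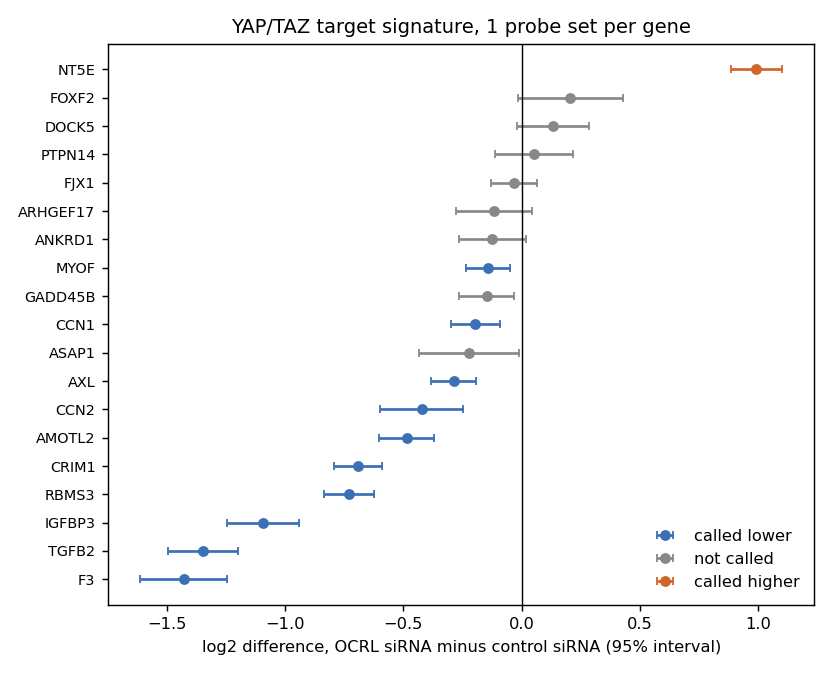
Points are log2 differences of OCRL siRNA minus control siRNA with 95% intervals from the limma fit, for the 19 measured genes of the target signature, coloured by call. F3, TGFB2 and IGFBP3 fell by more than 1, and CCN1 and MYOF were called lower by small amounts. FJX1 and PTPN14 lie closest to 0, and NT5E alone was called higher.

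A further 16 genes that are often read as targets of YAP and TAZ were listed, of which 13 were measured. Of these, 9 fell and 1 rose, with a median difference of -0.50, which is 69.2% lower beside 10.5% of all genes and 7.69% higher beside 15.5%. This list too was chosen with earlier results of these data known, so its shares are no independent evidence of a fall. The 3 that did not pass, named after their values were seen, were BIRC5 (log2 difference 0.08, adjusted p = 0.247), MYC (-0.02, 0.863) and INHBA (-0.02, 0.862). EDN1, which encodes endothelin-1, fell by 1.67 on the log2 scale, from 9.70, 9.90 and 10.00 to 8.28, 8.19 and 8.11. The growth factor genes HBEGF (-0.94, SE 0.050) and FGF2 (-0.80, SE 0.046) fell, the latter with a difference of -1.94 in its other probe set. The matrix protein gene THBS1 (-0.80, SE 0.092), the matrix protease gene ADAMTS1 (-0.75, SE 0.045) and the caveolin gene CAV1 (-0.74, SE 0.052) also fell. Falls were smaller in the Notch ligand gene JAG1 (-0.50), the follistatin-like gene FSTL1 (-0.34) and the Wnt inhibitor gene DKK1 (-0.24), the last with its call lost in 6 of 15 other settings, among them the omission of any control array or of OCRL siRNA replicate 2 or 3. All 5 probe sets of THBS1, both of FGF2 and both of CAV1 were lower, whereas 1 of 3 for HBEGF and 1 of 4 for JAG1 did not pass. The cell cycle gene CCND1 rose 1.64-fold (log2 difference 0.71, SE 0.079), from 8.50, 8.27 and 8.30 to 9.18, 9.01 and 9.02. Many of these genes also respond to other signals, such as growth factors or serum response factor.

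Upstream of the coactivators, the kinases, scaffolds and regulators of the pathway held both falls and rises. Of 39 listed kinases, scaffolds and regulators, 30 were measured, among them the member AMOTL2, and 10 fell, 3 rose and 17 did not pass, which is 33.3% lower beside 10.5% of all genes and 10.0% higher beside 15.5%. With the nuclear partners, among them YAP1 and WWTR1, the pathway list held 38 measured genes, with a median of -0.07. Of these, 11 were lower (28.9% beside 10.5% of all genes) and 5 higher (13.2% beside 15.5%). Averaging the probe sets of each gene turned this split into 8 lower and 8 higher. Leaving out 1 array gave 11 to 16 called genes, with 11 without control replicate 2, control replicate 3 or OCRL siRNA replicate 1. The list holds activators and inhibitors of YAP and TAZ, so its counts give no direction of pathway activity.

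Several of the genes that fell act at the cell membrane. NF2, which encodes the scaffold merlin that recruits LATS to the membrane, was at 10.57, 10.63 and 10.59 in control arrays and 9.95, 9.94 and 9.89 in OCRL siRNA arrays. It fell 1.59-fold (log2 difference -0.67, SE 0.043, adjusted p = 1.40e-04). Of its 7 probe sets 2 were lower and 5 did not pass. FAT1, a giant protocadherin, fell 1.52-fold from 12.18, 12.05 and 12.02 to 11.50, 11.46 and 11.49 (log2 difference -0.60, SE 0.054). WWC1, which encodes KIBRA, a partner of merlin, fell 1.33-fold (log2 difference -0.41, SE 0.044), and both of its probe sets were lower. AMOT, a relative of AMOTL2, was called lower (-0.30) but lay below the lower quartile on all 6 arrays, and the call was lost without control replicate 2, control replicate 3, OCRL siRNA replicate 1 or OCRL siRNA replicate 2 (adjusted p up to 0.0774).

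Of the core kinases, STK3, which encodes MST2, fell 1.30-fold from 10.33, 10.23 and 10.29 to 9.92, 9.88 and 9.92 (log2 difference -0.38, SE 0.045, adjusted p = 0.00144). Its second probe set, at 5.29 and 5.46, did not pass, and the mean of both gave -0.10 (adjusted p = 0.254). The paralog STK4, which encodes MST1, had a difference of 0.20 in its brighter probe set (SE 0.064, adjusted p = 0.0628) and was called higher in 5 of 15 other settings. SAV1 and MOB1A, adaptors of MST and LATS, had differences of 0.12 and -0.08 (adjusted p = 0.176 and 0.260), and LATS1 lay below the lower quartile on all 6 arrays (difference -0.03, adjusted p = 0.788). The 3 genes that rose were TAOK3, a kinase of the family that activates MST (log2 difference 0.54, SE 0.057), RASSF1, a tumour suppressor that binds MST (0.39, SE 0.065), and the LATS relative STK38L (0.25, SE 0.057). TAOK3 was at 9.12, 9.11 and 9.11 in control arrays and 9.68, 9.55 and 9.73 in OCRL siRNA arrays. STK38L lost its call in 4 of 15 other settings, among them the omission of control replicate 2, OCRL siRNA replicate 2 or OCRL siRNA replicate 3.

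The remaining falls were in STK38, another relative of LATS (log2 difference -0.20), the casein kinase gene CSNK1D, whose product marks YAP for degradation (-0.27), and 2 genes of the phosphatase complex that opposes MST, STRN (-0.40) and PPP2R1A (-0.18). The calls of STK38 and CSNK1D were lost without control replicate 2, control replicate 3 or OCRL siRNA replicate 1. The next brightest probe set of CSNK1D was called higher (0.18, adjusted p = 0.0269 by limma). The mean of the CSNK1D probe sets gave -0.03 (adjusted p = 0.782). The 2 other probe sets of STK38, below the lower quartile on all 6 arrays, had differences of 0.05 and 0.06, and the mean of its probe sets gave -0.03 (adjusted p = 0.730). The call of PPP2R1A was lost without any array but OCRL siRNA replicate 2. STRN lay below the median of all probe sets on all 6 arrays, and its other probe set did not pass (-0.07, adjusted p = 0.438).

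**Figure D4:**
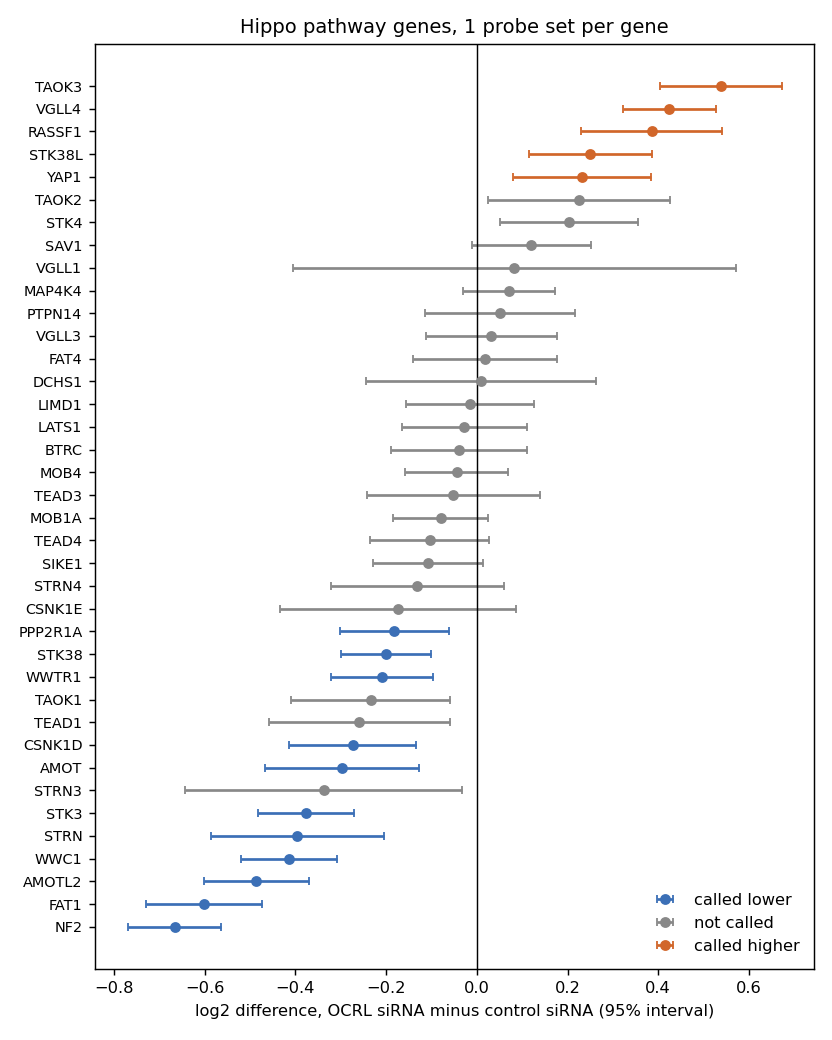
Points are log2 differences of OCRL siRNA minus control siRNA with 95% intervals from the limma fit, for 38 genes of the Hippo pathway including its nuclear partners, coloured by call. NF2, FAT1 and AMOTL2 lie at the lower end and TAOK3, VGLL4 and RASSF1 at the upper end.

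The families of the secreted and receptor targets did not move as units. In the CCN family, CCN3 rose while CCN1 and CCN2 fell. CCN3 was at 9.13, 8.99 and 8.98 in control arrays and 9.70, 9.71 and 9.75 in OCRL siRNA arrays, a 1.61-fold rise (log2 difference 0.69, SE 0.055, adjusted p = 3.03e-04), and its second probe set rose by 0.62. CCN4 lay below the lower quartile on all 6 arrays, and its call as lower (-0.22, adjusted p = 0.0257) was lost in 11 of 14 other settings, among them the omission of any array but OCRL siRNA replicate 1. CCN5 and CCN6 had differences of -0.16 and 0.14 (adjusted p = 0.475 and 0.368), CCN6 also below the lower quartile on all 6 arrays. Among the relatives of AXL, MERTK rose by 0.28 (SE 0.058, adjusted p = 0.0136) in 1 of its 3 probe sets, from 7.18, 7.30 and 7.17 to 7.45, 7.57 and 7.47, and this call was lost without control replicate 3 (adjusted p = 0.0529). TYRO3 had a difference of 0.15 (adjusted p = 0.0930). The ligand genes GAS6 and PROS1 had differences of -0.13 (adjusted p = 0.0537) and -0.13 (0.260). GAS6 was called lower in 5 of 15 other settings and TYRO3 higher in 2 of 14.

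**Figure D5:**
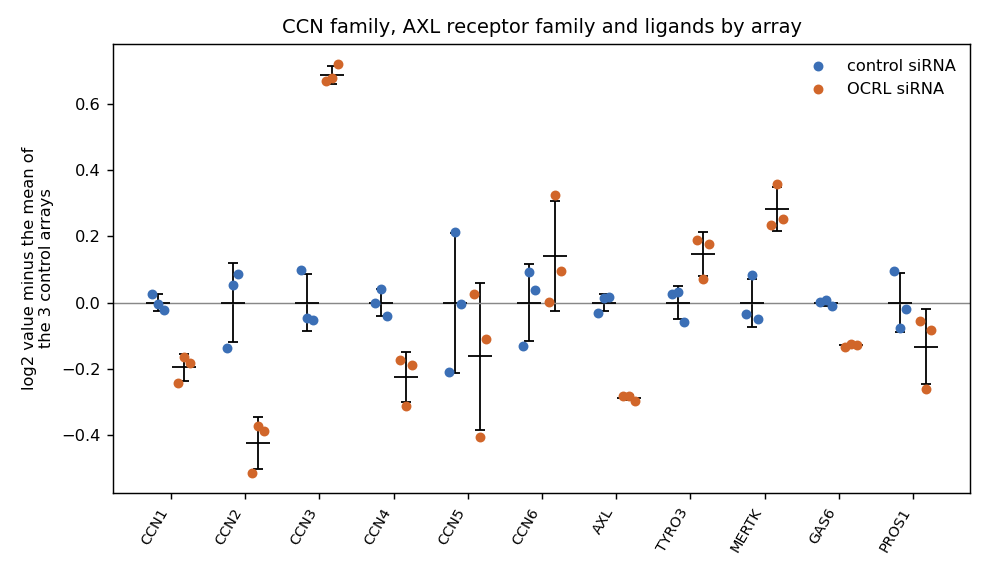
Each point is 1 array, as the log2 value minus the mean of the 3 control arrays, for the representative probe sets of the CCN family and of the AXL receptor family with its ligands; bars are means ± SD of 3 arrays. CCN3 and MERTK lie above the control arrays where CCN1, CCN2 and AXL lie below them.

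Genes whose array values followed those of CCN1 and CCN2 most closely were found by the mean absolute distance over the 6 arrays between deviations from the control mean, among 11962 other genes. For CCN1 they were NUCKS1 (distance 0.010), MICAL1 (0.016) and SRSF8 (0.017), with differences of -0.18, -0.20 and -0.17. For CCN2 they were KRT8 (0.035), CCNH (0.037) and MYL9 (0.040), with differences of -0.38, -0.37 and -0.44. KRT8 is a keratin of simple epithelia, MYL9 a myosin light chain and CCNH a cyclin. The 3 genes nearest to CCN1 lost their calls in several settings, each without OCRL siRNA replicate 1, 2 or 3 among them.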

How the data were processed

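Biotin-labelled cRNA from 6 HK2 samples was read on Affymetrix arrays, 1 per sample, per the labels' protocols. The authors deposited a log2 value per probe set, already normalised. Affy and RMA are the tools listed, per the submitters' processing notes, and their versions are not given in the sources. RMA gives arrays a common distribution and compresses differences of dim probe sets.

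Of 22277 probe sets, 62 controls were left out and 22215 tested. Gene names came from GEO's annotation of the platform, updated through Entrez identifiers where these matched. A gene was represented by its probe set with the highest mean, and 1043 probe sets with several symbols and 2108 with none were not named. The test was limma 3.58.1 under R 4.3.3 (two-sided, group as the only term), with p-values adjusted by Benjamini-Hochberg across the whole table and a threshold of 0.05; "called" means past this threshold. SE and 95% intervals are the moderated ones. The fit was tested on simulated data. Motifs were searched in RefSeq promoter windows. Figures were drawn with matplotlib 3.10.9.

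The members and gene lists were chosen with earlier results of these data known, so they are no independent evidence of a direction. Named are all members, OCRL, called genes of the pathway and target lists, core kinases, nuclear partners, all signature, CCN and AXL family genes, and the 3 genes nearest to CCN1 and to CCN2. Alternatives were other scalings, variance models, probe set choices, a replicate block and the omission of each array.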

Additional observations from a re-analysis of the deposited data

How the results depend on the processing

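The alternatives numbered 15 beside the fit reported. Of 46 named genes called, 30 were called in the same direction in every setting that held them and 16 lost the call or changed sign in at least 1. Of 22 not called, 6 were called in at least 1. Leaving out 1 array gave 4 to 7 member genes called, 9 to 11 signature genes and 3576 to 4898 probe sets. With _s_at and _x_at probe sets left out, 7 signature genes were called. MERTK had a difference of -0.023 and DOCK5 of -0.10 in that setting. By the most variable probe set, GADD45B was at 0.0066, DOCK5 at -0.10 and TYRO3 at -0.13. VGLL3 was at -0.014 after median centring and -0.0059 with array weights, and VGLL1 at -0.056 with array weights. Leaving out 1 array changed the sign of some differences, which ran from -0.00043 to 0.087 for VGLL3, -0.11 to 0.23 for VGLL1, -0.12 to 0.0046 for TEAD3, -0.062 to 0.014 for LATS1 and -0.0028 to 0.094 for PTPN14. Apart from MERTK, which was called higher in the fit reported, none of these genes was called in that fit or in the settings where the sign changed, and the cause of the changes was not tested.

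Same-numbered arrays of the groups deviated together with correlations of 0.142, 0.123 and -0.0095 across probe sets. Those of differently numbered arrays ran from -0.176 to 0.096. The first 2 same-numbered values were thus the highest and the third was not, so whether the arrays were paired was not settled. With the replicate block 4571 probe sets were called in place of 5137, with 5 member genes, 14 pathway genes and 9 signature genes, and the calls of CCN1 and YAP1 were lost (adjusted p = 0.0533 and 0.0534).

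Signal limits what can be said of LATS1, AMOT, CCN4, CCN6, VGLL3, DOCK5, FOXF2 and the tubule marker ANPEP, which lay below the lower quartile on every array.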

Other observations

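Some pathway genes had probe sets that differed in their calls. CSNK1D was lower by its brightest probe set (log2 difference -0.27, adjusted p = 0.0166) and higher by the next (0.18, adjusted p = 0.0269), and the mean over its 3 probe sets gave -0.03. MOB1A had 1 of 4 probe sets called, which was higher by 0.23 (adjusted p = 0.00778), while the brightest had a difference of -0.08. STK4 was called higher only by the dimmer of its 2 probe sets (0.18, adjusted p = 0.0249). Which transcripts these probe sets read was not tested.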
